A study of Mus musculus with 4 samples.

Results

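The forkhead genes encode transcription factors that share a winged-helix DNA-binding domain. The letter after Fox names the subfamily and the number the member. Members were taken as protein-coding genes whose Ensembl identifier carries a symbol of that form, from Foxa to Foxs. Of 44 such symbols in the reference annotation, 26 were found among the 32948 genes of the count table, and the other 18, Foxm1 among them, were not analysed here.

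RNA came from cells of the arch and ascending part of the aorta in Wnt1-Cre;Rosa26-mTmG mice. In this reporter every cell makes the red membrane protein tdTomato from the Rosa26 locus until Cre removes it, and from then on the cell and its descendants make green GFP instead, and all groups carried both alleles. Cre is driven by regulatory sequence of Wnt1, active in the neural crest, so GFP marks a history of that Cre activity and tdTomato all other cells of the digest. A female suspension of 1 sample and a male suspension pooled from 2 samples were each split by colour in a sorter, which gave 4 libraries, 1 for each combination of colour and sex. The sources used here give neither age nor strain background.

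Several forkhead subfamilies have known roles in vessel walls. FoxC factors act in the neural crest and mesoderm that build the arch arteries. FoxF and FoxL factors lie downstream of Hedgehog signalling in mesenchyme, and FoxO factors, which AKT and SGK kinases keep out of the nucleus, control stress, metabolic and cell cycle genes. FoxP factors bind DNA as dimers and recruit corepressors, whereas FoxK, FoxJ and FoxN members other than a few tissue-restricted ones are broadly expressed.

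The libraries held 10094326 to 13911281 estimated counts, and levels are given as CPM, counts scaled to library size after TMM scaling between libraries. The labels call every library vascular smooth muscle. All 7 smooth muscle markers checked were present in every library, with summed levels of 14110 to 16740 CPM in GFP and 12170 to 12790 CPM in tdTomato. Other cell types moved with the groups. The 8 endothelial markers summed to 11.9 to 15.9 CPM in GFP and 234 to 374 CPM in tdTomato, with Kdr and Egfl7 at 0 in female GFP and all but Pecam1 at 0 in male GFP. The 6 macrophage markers found summed to 0.323 to 6.48 CPM in GFP and 20.3 to 84.95 CPM in tdTomato. In female GFP that sum was Csf1r alone, with the other 5 markers at 0 counts. Csf1r was higher there than in female tdTomato, at 6.48 against 4.80 CPM. The 6 fibroblast markers summed to 579 CPM in male GFP and to 3350 to 4094 CPM in the other libraries. In male GFP Gsn and Dcn gave most of that sum, with Lum at 2.80 CPM. Elsewhere the sum was carried by Dcn, Lum and Gsn. Their rarer fellows were ordered otherwise, with Pdgfra at 0 and 0.43 CPM in female and male GFP against 69.3 and 62.5 CPM in tdTomato, Col14a1 at 8.08 and 19.03 CPM against 99.9 and 129.8 CPM, and Pi16 highest in male GFP at 89.3 CPM. The 4 Schwann cell markers summed to 110 to 129 CPM in GFP and 8.31 to 11.8 CPM in tdTomato. Male GFP also stood apart in detection, with 9517 genes at 10 counts or more against 12008 to 16227 elsewhere. Their part in the results below was not tested, and in bulk libraries fewer cells of a type and less RNA per cell cannot be told apart.

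Forkhead transcripts were carried by a small group of abundant members. Foxn3, Foxp2, Foxc1, Foxp1 and Foxo1 had mean levels of 256, 252, 221, 183 and 149 CPM, and made up 73.3% to 83.6% of the summed forkhead level in each library. That sum was 1354 CPM for female GFP, 1275 CPM for female tdTomato, 1440 CPM for male GFP and 1282 CPM for male tdTomato. Scaled by annotated exon length, Foxc2 and Foxc1 led with mean levels of 38.7 and 37.8 CPM per kb, followed by Foxn3, Foxo1, Foxp2 and Foxp1 at 22.3, 17.2, 15.4 and 13.3 CPM per kb. The place of Foxc2 rested on male GFP, where it measured 101.7 CPM per kb against 15.7 to 21.4 CPM per kb elsewhere. Reaching 10 CPM or more in at least 1 library were 15 members, and 4 others (Foxo4, Foxp4, Foxa3 and Foxr1) had 10 counts or more in some library without reaching that level. The remaining 7, among them Foxf2, Foxj1, Foxl1, Foxn4, Foxp3 and Foxq1, had at most 5 counts anywhere. In the plot of levels by gene, the 5 abundant members stand together at the top and the GFP libraries scatter most below them.

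**Figure D1:**
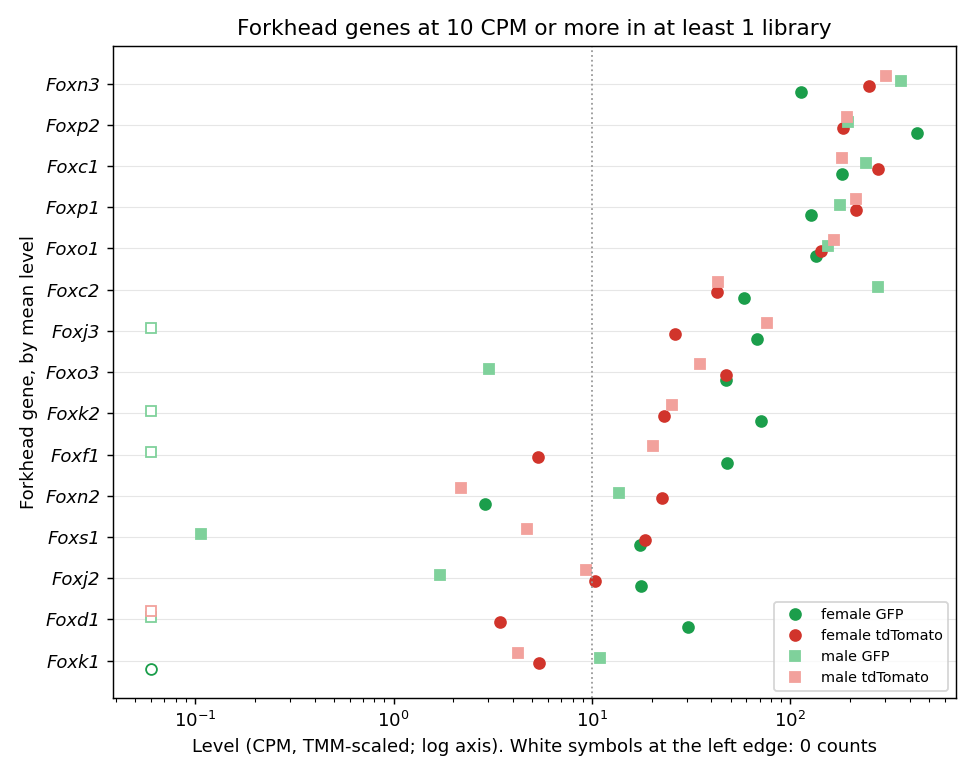
Level of each forkhead gene that reached 10 CPM (dotted line) in at least 1 library, in CPM on a log axis, with 1 symbol per library (circles female, squares male; dark and light green GFP, dark and light red tdTomato). White symbols at the left edge stand for 0 counts, which male GFP had for Foxj3, Foxk2, Foxf1 and Foxd1, female GFP for Foxk1 and male tdTomato for Foxd1.

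The design compared cells of Wnt1-Cre history against the tdTomato cells sorted beside them, and male against female. No forkhead gene passed the test in either comparison. edgeR's quasi-likelihood test with the suspension as a block called 0 of the 17 members that passed the filter on low counts for colour, where it called 0.0% of all 15055 genes tested. No member had an unadjusted p under 0.05 against 1298 of all genes. The smallest adjusted value was that of Foxp4 (edgeR, Benjamini-Hochberg adjusted p = 0.605). On the same design DESeq2 called 7.69% of all genes for colour and no member, and limma-voom called no gene. DESeq2 gave Foxo4 and Foxp4 no adjusted p in either comparison. For sex, edgeR also called no member and 0.0% of all genes, with 262 genes and no member at an unadjusted p under 0.05. DESeq2 called 0.93% of all genes for sex and 1 member, Foxd1 (DESeq2 adjusted p = 0.0386, edgeR adjusted p = 1.00). Foxd1 had 0 counts in both male libraries and passed the filter only through the female ones, so that call is not independent of the filter. The test had 1 residual degree of freedom and a common dispersion of 1.47, so that 0 calls does not show that levels were alike. The only replicates of a colour were suspensions that also differ in sex. Each sex was 1 suspension whose libraries came from the same animals, so sex and suspension cannot be told apart. What follows is mostly a description of libraries.

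Foxo1 was the steadiest member. This FoxO factor, needed for vessel formation in the embryo, stood at 134 CPM for female GFP, 142 CPM for female tdTomato, 155 CPM for male GFP and 166 CPM for male tdTomato. The highest library was 1.23-fold above the lowest. Among 1825 genes with a mean of 100 CPM or more, 1.26% had a smaller spread, and the median gene spread 3.23-fold. Female GFP was 0.943-fold female tdTomato (95% counting interval 0.884 to 1.01) and male GFP was 0.934-fold male tdTomato (0.874 to 0.998), so that the log2 ratio averaged -0.09 ± 0.01 (SD, n = 2 pairs), a value that turned positive with DESeq2's size factors. Exons of Foxo1 share 674 bases with an antisense gene model, whose reads this kit without strand cannot set apart.

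Its relative Foxo3 did not share that evenness. Foxo3, a FoxO factor of stress resistance and cell survival, stood at 47.3 CPM for female GFP, 47.2 CPM for female tdTomato, 3.01 CPM for male GFP and 34.9 CPM for male tdTomato. Only male GFP was low, 11.6-fold below its tdTomato partner (7.91 to 17.6) and 15.7-fold below female GFP (10.7 to 23.8). Foxo3 therefore gave 1.86% of FoxO counts in male GFP (exact 95% binomial interval 1.24% to 2.68%) and 17.4% to 26.0% in the other libraries. Foxo4, the scarcest FoxO member measured, had 0 counts for female GFP, 21 for female tdTomato, 36 for male GFP and 7 for male tdTomato, so that its order over the libraries was not that of Foxo1 or Foxo3.

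The genes around the FoxO factors were read from lists of upstream regulators and target genes. Of 12 upstream regulators tested, edgeR called none for colour, none was 2-fold or more above tdTomato in each pair, and 2 were 2-fold or more below it in each, as 5.17% and 22.9% of all tested genes were. Of these Skp2, a ubiquitin ligase subunit singled out after its values were seen, was at 0 in both GFP libraries and at 11.1 and 4.43 CPM in female and male tdTomato. Sgk1, a kinase that phosphorylates FoxO factors, was the most abundant regulator, at 1232 and 1698 CPM in the GFP libraries and 906 and 956 CPM in the tdTomato ones. Sirt1, a deacetylase of FoxO proteins, measured 235 and 246 CPM against 205 and 224 CPM. Both stayed within 2-fold in each pair, whereas Pik3ca, a catalytic subunit of PI3 kinase, measured 47.8 and 330 CPM in the GFP libraries and 108 and 76.0 CPM.

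Of 20 FoxO target genes tested, edgeR called none, 2 were 2-fold or more above tdTomato in each pair, 3 below it in each, and 4 went opposite ways, beside 5.17%, 22.9% and 19.2% of all tested genes. Their log2 ratios had medians of 0.11 (female pair) and -1.55 (male pair), beside -0.27 and -0.998 over all tested genes. The 2 higher ones, seen in the values first, were Bcl2l11, a mediator of apoptosis, at 22.6 and 479 CPM in the GFP libraries and 6.08 and 2.04 CPM in the tdTomato ones, and Sesn1, a stress-induced inhibitor of growth signalling, at 157 and 339 CPM against 52.4 and 50.0 CPM. The lower ones, also picked out from their values, were Ccng2, Sesn3 and S1pr1. Ccng2 and S1pr1 had 0 counts in both GFP libraries, and S1pr1 is also an endothelial gene. The abundant targets Klf2, Irs2 and Txnip measured 774, 380 and 145 CPM in female GFP and 143, 90.8 and 212 CPM in male GFP. In tdTomato the same genes measured 548, 148 and 157 CPM in the female library and 645, 286 and 260 CPM in the male one.

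**Figure D2:**
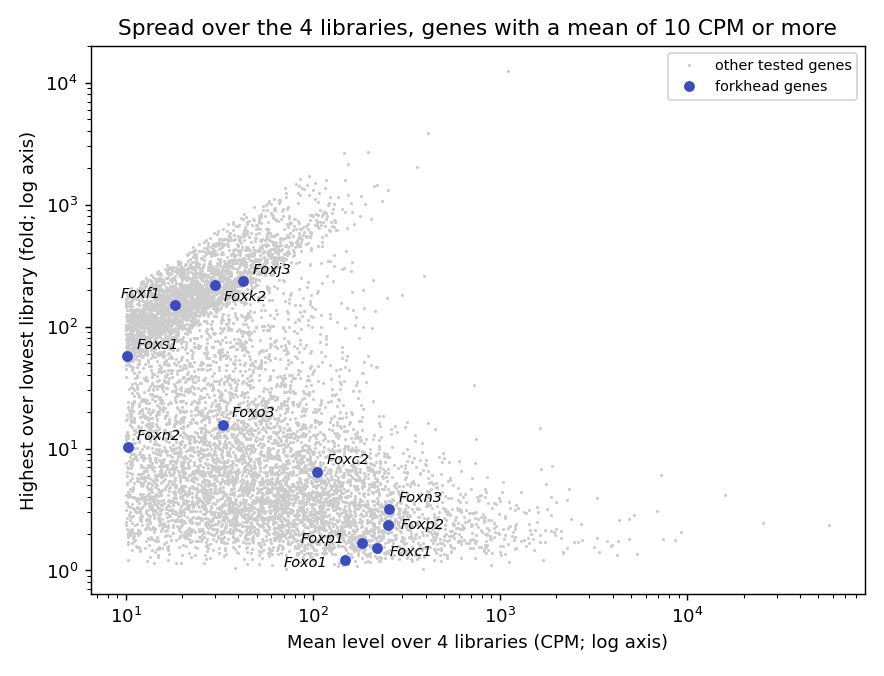
Highest over lowest library (fold, log axis) against mean level (CPM, log axis) for tested genes with a mean of 10 CPM or more (grey) and 12 forkhead genes (blue), with values under 3 counts set to the worth of 3 counts. Foxo1, Foxc1 and Foxp1 lie at the lower edge with spreads of 1.23-fold, 1.52-fold and 1.69-fold, and Foxf1, Foxk2 and Foxj3 at 149-fold or more.

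Foxc1 was also steady, while its paralogue Foxc2 was not. Foxc1, needed for arch artery and outflow development, stood at 182 CPM for female GFP, 277 CPM for female tdTomato, 241 CPM for male GFP and 182 CPM for male tdTomato. The GFP and tdTomato values overlapped, and GFP was 0.656-fold tdTomato for the female suspension (0.623 to 0.691) and 1.32-fold for the male one (1.25 to 1.40). Foxc2, which acts with Foxc1 and also in lymphatic vessels, measured 58.4, 42.9, 277 and 43.1 CPM in the same order. The 2 tdTomato libraries agreed within counting error, with male at 1.00-fold female (0.897 to 1.13). Male GFP was far above them, 6.43-fold over its partner (5.88 to 7.04), and female GFP was 1.36-fold over its own (1.22 to 1.52). The log2 ratio of Foxc2 averaged 1.56 ± 1.58 (SD, n = 2 pairs), and edgeR's adjusted p was 1.00. Without male GFP the difference of the colour means was 0.44, and without female GFP it was 2.68.

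The balance of these paralogues inside a library does not depend on scaling between libraries. Foxc2 took 24.3% of FoxC counts in female GFP (22.8% to 25.9%), 13.4% in female tdTomato (12.4% to 14.4%), 53.5% in male GFP (52.1% to 54.9%) and 19.1% in male tdTomato (17.7% to 20.5%). The share was higher in GFP than in tdTomato of the same suspension both times, with counting intervals that did not overlap. The intervals of the tdTomato libraries did not overlap each other either, nor did those of the GFP libraries. They cover counting error and no spread between libraries. Per kb of exon, Foxc2 over Foxc1 was 0.688, 0.332, 2.47 and 0.507 in the same order. Of 6 FoxC target genes listed, Hey2, Cxcl12 and Itgb3 could be tested, and edgeR called none for colour. Cxcl12, a chemokine, measured 65.4 and 0.215 CPM in female and male GFP against 120 and 133 CPM in tdTomato, and Hey2, a Notch-regulated repressor, 38.0 and 0.323 CPM against 63.6 and 104 CPM. Itgb3 measured 24.7 and 4.41 CPM against 50.4 and 21.4 CPM. It was the 1 target 2-fold or more below tdTomato in each pair, beside 22.9% of all tested genes. All of these targets were lowest in male GFP. Of all genes with a mean of 10 CPM or more, 23.9% had 3 counts or fewer there.

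**Figure D3:**
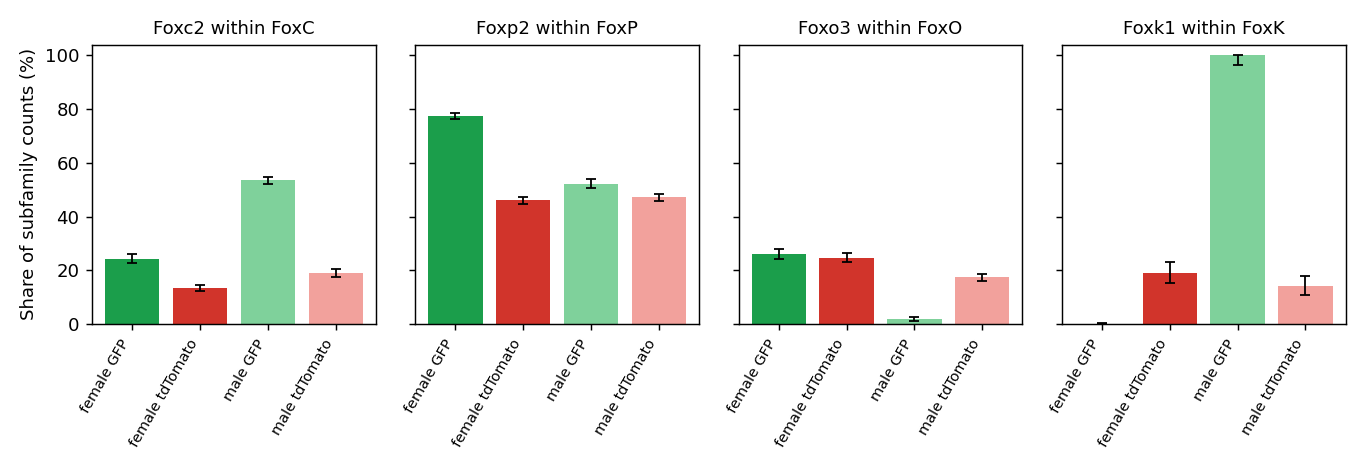
Share of the summed counts of a subfamily (%) taken by 1 member in each library, with exact 95% binomial intervals for counting error (bars from 0, green GFP and red tdTomato, dark female and light male). Foxc2 reached 53.5% of FoxC counts in male GFP, Foxp2 77.4% of FoxP counts in female GFP, Foxo3 1.86% of FoxO counts in male GFP, and Foxk1 gave no FoxK counts in female GFP and all of them in male GFP.

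Abundant and nearly silent forkhead genes lay side by side. In the RefSeq gene order Foxq1, Foxf2 and Foxc1 are consecutive protein-coding genes, and Foxf1, Foxc2 and Foxl1 form a second cluster with 1 other protein-coding gene between Foxf1 and Foxc2. In the first cluster Foxf2, a FoxF factor of mesenchyme, had 0, 2, 0 and 4 counts and Foxq1 had 1 count in all, next to Foxc1 with 2240 to 4106 counts. In the second cluster Foxl1 had 2 to 5 counts. The windows of 250 bases before the start of Foxc1 and Foxf2, as neighbours at opposite levels, and of Foxo1, as the steadiest member, are shown from RefSeq (GRCm38.p6, plus strand, at chr13:31806396-31806645, chr13:31625566-31625815 and chr3:52268087-52268336). Capitals mark matches on either strand to the GC box (GGGCGG), the CCAAT box (these letters), the TATA box (TATAAA), the forkhead site (TGTTTAC) or the E-box (CACGTG), and no match overlaps another here.
Foxc1: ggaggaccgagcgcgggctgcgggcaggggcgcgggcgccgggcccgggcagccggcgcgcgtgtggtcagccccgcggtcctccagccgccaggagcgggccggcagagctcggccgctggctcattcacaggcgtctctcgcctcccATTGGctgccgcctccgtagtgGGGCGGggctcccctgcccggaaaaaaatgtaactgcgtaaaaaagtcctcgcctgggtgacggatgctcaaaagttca
Foxf2: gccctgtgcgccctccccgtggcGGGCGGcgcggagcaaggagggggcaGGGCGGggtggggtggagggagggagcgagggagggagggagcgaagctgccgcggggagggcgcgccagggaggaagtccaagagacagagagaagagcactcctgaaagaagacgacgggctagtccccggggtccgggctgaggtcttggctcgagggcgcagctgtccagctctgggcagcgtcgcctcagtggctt
Foxo1: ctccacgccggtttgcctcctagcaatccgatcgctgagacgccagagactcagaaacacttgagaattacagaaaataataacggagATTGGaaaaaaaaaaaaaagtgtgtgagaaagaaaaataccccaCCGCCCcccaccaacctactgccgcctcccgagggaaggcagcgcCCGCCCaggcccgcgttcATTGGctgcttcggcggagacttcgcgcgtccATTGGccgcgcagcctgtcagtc
The windows of Foxc1 and Foxf2 were alike in base content, at 70.8% and 71.6% G and C, against 56.0% for Foxo1 and a median of 52.4% over 32851 RefSeq windows. Foxc1 held 1 GC box and 1 CCAAT box match, Foxf2 held 2 and 0, and Foxo1 held 2 and 3. Over all windows the GC box letters were found in 32.7%, the CCAAT box in 33.8%, the TATA box in 12.4%, the forkhead site in 3.17% and the E-box in 6.02%. Of 18 windows listed for 15 members, 13 held a GC box, 7 a CCAAT box, 2 a TATA box (Foxa3 and Foxp3) and none a forkhead site or an E-box. These are matches of letters in short windows, and binding was not measured.

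Foxf1 went opposite ways in the 2 suspensions. This Hedgehog-responsive factor of mesenchyme stood at 47.9 CPM for female GFP, 5.34 CPM for female tdTomato, 0 for male GFP and 20.2 CPM for male tdTomato. Female GFP was 8.98-fold above its partner (7.09 to 11.5), and male GFP at least 62.6-fold below its own. Fendrr, a non-coding RNA gene beside Foxf1 chosen after its values were seen, was also highest in female GFP, at 10.7, 1.15, 0 and 0.509 CPM. Of 11 Hedgehog pathway genes tested, edgeR called none, none was 2-fold or more above tdTomato in each pair, and 5 were 2-fold or more below it in each, namely Ptch1, Smo, Boc, Gas1 and Dhh, beside 5.17% and 22.9% of all tested genes. The list's median log2 ratios were -1.72 and -5.29 beside -0.27 and -0.998 over all tested genes. Ptch1, a Hedgehog receptor and target, was at 0 in both GFP libraries and at 84.3 and 86.5 CPM in the tdTomato ones. The female GFP library, where 3 counts are worth 0.24 CPM, held no more than that for 10.2% of genes averaging 10 CPM or more. Whether Foxf1 there depended on Hedgehog signalling was not tested. Hhip, which binds Hedgehog ligands, measured 62.0 and 61.9 CPM in the GFP libraries and 45.2 and 96.4 CPM, and Gas1, a coreceptor, 17.8 and 0 CPM against 75.2 and 16.6 CPM.

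Foxd1 and Foxs1 had their lowest values in the male libraries. Foxd1, a factor of stromal and pericyte progenitors, had 381 counts in female GFP (30.5 CPM), 51 in female tdTomato (3.45 CPM) and 0 in both male libraries. Female GFP was 8.85-fold above its partner (6.59 to 12.1), and male was at least 94.5-fold lower than female in GFP and at least 15.8-fold lower in tdTomato. Foxs1, a factor of pericytes and of neural crest derived sensory neurons, measured 17.5, 18.5, 0.108 and 4.72 CPM. The female libraries agreed within counting error at 0.947-fold (0.789 to 1.13), and both male libraries were below them. Male tdTomato was 3.92-fold below female tdTomato (2.98 to 5.22), and male GFP held 1 count. Foxd2os, the antisense neighbour of Foxd2 and not of Foxd1, was highest in female GFP, at 51.4, 19.1, 0.645 and 6.76 CPM, and was picked out from its values. Foxl2os, the antisense neighbour of Foxl2, was looked at with it and had 3, 7, 0 and 0 counts. Foxd1, Foxs1, Foxc1, Foxc2, Foxl1 and Foxq1 are the 6 members annotated with 1 exon, so that no read of theirs can show splicing.

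FoxP transcripts came from Foxp1 and Foxp2. Foxp1, a repressor in heart and vessel development, stood at 127 CPM for female GFP, 214 CPM for female tdTomato, 178 CPM for male GFP and 214 CPM for male tdTomato. It was lower in GFP in both pairs, by 1.69-fold (1.59 to 1.79) and 1.20-fold (1.13 to 1.28). The log2 ratio averaged -0.51 ± 0.35 (SD, n = 2 pairs). Foxp2, best known from the brain and lung, measured 436, 184, 195 and 192 CPM. Only female GFP was high, 2.36-fold above its partner (2.26 to 2.48), and the other libraries lay within 1.06-fold of each other. Foxp2 was thus 77.4% of FoxP counts in female GFP (76.4% to 78.4%) and 46.0% to 52.3% elsewhere. Foxp4 had 3 and 0 counts in GFP against 28 and 16 in tdTomato. It was the only member that was 2-fold or more below tdTomato in each pair, 1 of 17 against 22.9% of all tested genes. Foxp3, the factor of regulatory T cells, had 1 count for female GFP, 5 for female tdTomato and 0 for both male libraries. Exons of Foxp3 share 853 bases with Flicr and 590 with Ccdc22, among other gene models, and the kit keeps no strand. T cell markers were uneven, with Lck at 281 counts and Cd2 at 45 in female tdTomato and both at 0 elsewhere, Cd3d at 5 to 23 counts in every library, and Cd3e at 1 count in female tdTomato and 0 elsewhere. Their part in the Foxp3 counts was not tested.

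The FoxK gene that was detected differed between the GFP libraries. Foxk1 and Foxk2 are broadly expressed repressors of autophagy genes. Foxk2 stood at 71.1 CPM for female GFP, 23.1 CPM for female tdTomato, 0 for male GFP and 25.4 CPM for male tdTomato. Foxk1 measured 0, 5.40, 10.97 and 4.21 CPM in that order. The tdTomato libraries agreed within counting error for both, at male over female ratios of 1.10 (0.943 to 1.28) for Foxk2 and 0.780 (0.546 to 1.11) for Foxk1. In GFP the whole FoxK count was Foxk2 in the female library (889 of 889 counts) and Foxk1 in the male one (102 of 102). Of 8 corepressors of FoxP and FoxK tested, edgeR called none and Bap1 was the 1 gene that was 2-fold or more below tdTomato in each pair, beside 22.9% of all tested genes. The list's median log2 ratios were 0.18 and -3.85, beside -0.27 and -0.998 over all tested genes, and 2 of the 8 had 0 counts in male GFP. The abundant ones, Gatad2b, Ctbp1 and Chd4, measured 104.5, 70.6 and 52.3 CPM for female GFP and 1.29, 63.99 and 72.5 CPM for male GFP. In tdTomato they measured 93.9, 61.5 and 40.1 CPM in the female library and 79.8, 19.3 and 36.2 CPM in the male one.

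FoxJ and FoxN members varied between the suspensions too. Foxj3, a widely expressed activator, stood at 67.6 CPM for female GFP, 26.1 CPM for female tdTomato, 0 for male GFP and 75.9 CPM for male tdTomato. Female GFP was 2.59-fold above its partner (2.29 to 2.93), and male GFP at least 235-fold below its own. Foxj2, of the same kind, measured 17.7, 10.4, 1.72 and 9.30 CPM, again lowest in male GFP. Foxj1, the master regulator of motile cilia, had 1 count in each tdTomato library and 0 in GFP, and of 10 of its targets listed only Dnah5 and Ccdc39 could be tested, at up to 15.3 CPM. Foxn3, a checkpoint-associated repressor, measured 113, 248, 360 and 303 CPM, low only in female GFP, 2.20-fold below its partner (2.07 to 2.34). Foxn2 measured 2.88, 22.4, 13.7 and 2.18 CPM, with 30 to 332 counts, so that female GFP was 7.79-fold below its partner (5.51 to 11.3) and male GFP 6.26-fold above its own (4.18 to 9.67).

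Across members the colours did not order the values the same way in both suspensions. Foxf1, Foxj3, Foxk1, Foxk2, Foxn2 and Foxo4 were at least 2-fold apart in opposite directions in the 2 pairs, 6 of 17 or 35.3%, where 19.2% of all tested genes were. Among members with a mean of 10 CPM or more it was 4 of 12, beside 21.9% of such genes. No member was 2-fold or more above tdTomato in each pair, against 5.17% of genes, and Foxc1, Foxo1 and Foxp1 were within 2-fold in both, 3 of 17 against 15.9%. The members' log2 ratios had medians of -0.08 (female pair) and -0.10 (male pair), beside -0.27 and -0.998 over all tested genes. Counted by pair, 5 members were 2-fold or more above tdTomato and 5 below it in the female suspension, against 22.0% and 37.8% of genes, and 4 and 7 in the male one, against 21.5% and 50.0%. In the plot of the female pair against the male pair, the upper left and lower right corners hold those 6 genes.

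**Figure D4:**
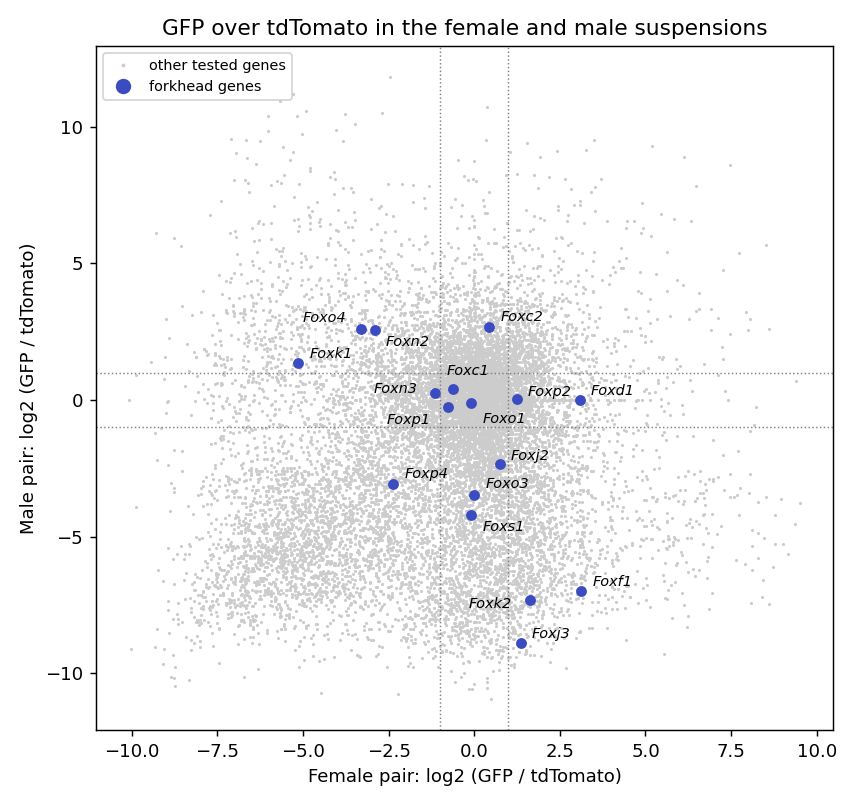
Log2 ratio of GFP over tdTomato in the female suspension (horizontal) and the male suspension (vertical), for 15055 tested genes (grey) and 17 forkhead genes (blue), with dotted lines at 2-fold. Foxk1, Foxn2 and Foxo4 sit at the upper left, Foxf1, Foxk2 and Foxj3 at the lower right, and Foxo1 near 0 on both axes.

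Between the sexes the GFP libraries were further apart than the tdTomato libraries for 14 of 17 members, beside 70.8% of all tested genes. In GFP, male lay 2-fold or more below female for 9 members and above it for 5, against 40.4% and 27.9% of all tested genes. In tdTomato, male lay below female by that much for 4 (Foxd1, Foxn2, Foxo4 and Foxs1) and above it for 2 (Foxf1 and Foxj3), against 21.6% and 20.6%. Low counts in male GFP were frequent in general. Of 12 members with a mean of 10 CPM or more, 4 (Foxf1, Foxj3, Foxk2 and Foxs1) had 3 counts or fewer there, as had 23.9% of all such genes, and none did in the other libraries, where 10.2% of genes did in female GFP, 2.36% in female tdTomato and 2.82% in male tdTomato.

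The scarce members gave few counts. Foxa3, a liver factor, had 37 counts in male tdTomato, 1 in male GFP and 0 in the female libraries, and Foxr1 had 15 in male tdTomato and at most 1 in the others. FoxM1 target genes, which drive mitosis, were read although Foxm1 was not analysed here. Of 15 listed, 12 had a row and 4 could be tested, and edgeR called none. Several that could not be tested had most of their counts in 1 tdTomato library. In male tdTomato Top2a had 112 counts, Aurka 101, Cenpa 79 and Ccnb1 35, with at most 7 in the other libraries, and in female tdTomato Nek2 had 80 and Cenpe 78, with 0 elsewhere. Cdc25b, a phosphatase of mitotic entry, was at 0 in both GFP libraries and at 19.8 and 16.5 CPM in female and male tdTomato. Mki67, a marker of cycling cells, had at most 2 counts in any library, and Ccnb2 had 19 in female GFP and at most 1 elsewhere. The genes that could not be tested were named after their values were seen. Kif20a, a mitotic kinesin, was the most abundant, at 17.9 and 68.5 CPM in the GFP libraries and 27.2 and 28.5 CPM in the tdTomato ones.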

How the data were processed

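SMART-Seq v4 cDNA of 4 sorted libraries was primed on poly(A) tails, amplified and cut with Tn5, per the labels' protocols, a kit that keeps no strand. The submitters' processing notes name fastp, HISAT2, StringTie and build GRCm39, and the counting step was not given in the sources used here. Estimated counts per Ensembl gene, unscaled, were deposited by the authors, per the file headers and values, of which 59.4% to 69.1% were whole (tolerance 1e-06).

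Symbols, exon numbers and exon lengths came from GENCODE M21, an earlier mouse build (GRCm38), matched by identifier for 76.4% of genes. Counts were rounded, kept by edgeR's filterByExpr at a minimum of 10 counts in 2 libraries (15055 genes), and scaled by TMM (factors 0.922 and 0.930 for GFP of the female and male suspension, 1.08 for both tdTomato libraries). Log2 ratios carried a prior count of 2. Folds of genes were taken without it, with exact 95% binomial intervals, or as bounds from 3 counts against a library at 0. Without molecular identifiers, intervals, shares and bounds cover counting error only. The main test was edgeR 4.0.16 (quasi-likelihood, R 4.3.3) with colour and suspension in 1 model and Benjamini-Hochberg adjustment at 0.05. Both colours of a suspension came from the same animals, which is where the pairing comes from. DESeq2 1.42.0, limma-voom (limma 3.58.1), other scalings, filters and prior counts, and leaving out each library were alternatives. The script was tested on simulated data.

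The members and lists were chosen with earlier results of these data known. Members at 10 CPM or more in any library are given in full, and of each list the 3 most abundant tested genes were open to naming. RefSeq windows were found for 15 of 26 members. The values of some genes are not reported here.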

Additional observations from a re-analysis of the deposited data

Results flagged for a closer look

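For 6 members GFP was at least 2-fold above tdTomato in 1 suspension and at least 2-fold below it in the other. With 1 library for each combination the difference was not tested. As the log2 ratio of the male pair minus that of the female pair it was -10.13 for Foxf1, -10.27 for Foxj3, -8.94 for Foxk2, 6.48 for Foxk1, 5.46 for Foxn2 and 5.91 for Foxo4. In 5 of these genes a GFP library had 0 counts, so that the size of their value depends on the prior count. Foxn2 is the exception, with 30 to 332 counts in each library.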

How the results depend on the processing

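The count of 0 edgeR calls for colour held with library totals, DESeq2 size factors, no filter, no replicate block and each library left out, and with limma-voom, while DESeq2 called 1157 genes, 49 higher and 1108 lower in GFP. For sex, DESeq2 called 140 genes, edgeR without a filter 2, and edgeR with a library left out 0. In settings added after seeing the data, DESeq2 at its default filtering level called 1109 genes for colour and 120 for sex, and edgeR with library sizes from before the filter called 0 for both. The members' median log2 ratio moved with the scaling, to -0.296 (female pair) and -0.317 (male pair) with library totals, and to 0.045 and 0.0 with DESeq2 size factors. The median over all genes moved alongside, from -0.27 and -0.998 to -0.48 and -1.20, and to -0.15 and -0.78. With all 26 members and no filter the medians were 0.014 and -0.254, a set with 9 more members of low count. The count of members at least 2-fold apart in opposite directions, a measure added after seeing the data, fell from 6 to 3 (Foxf1, Foxn2 and Foxo4) at 4-fold, stayed at 6 under the other scalings, priors and no filter, and was 4 at a mean of 10 CPM or more. Of 15 members at 10 CPM or more, the mean log2 ratio changed sign for 3 with DESeq2 size factors (Foxc1, Foxn2 and Foxo1), for 6 without female GFP, for 6 without male GFP and for 2 without either tdTomato library. Depth limits the members under 10 counts, of which only their scarcity can be stated.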
